A study of Caenorhabditis elegans with 8 samples.

Results

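The genes described here serve folding and stress signalling in the endoplasmic reticulum (ER) of Caenorhabditis elegans: the chaperone genes hsp-3 and hsp-4, the signalling genes ire-1, xbp-1, pek-1 and atf-6, and the folding genes crt-1, pdi-1, pdi-2 and dnj-7. They were taken as every probe set to which the array's platform annotation gives 1 gene symbol among these 10 names. This gave 16 probe sets of 22548 (10 genes of 17118 with 1 symbol), since xbp-1, ire-1, pek-1, atf-6, pdi-1 and pdi-2 have 2 probe sets each, called here the first (higher mean) and the second. All 16 passed the filter on dim probe sets, as did 15783 of the whole array.

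Each array holds RNA of whole day 4 adults of 1 strain, fasting or fed. The mutants were drsh-1(ok369), affected in Drosha, which crops primary microRNA transcripts in the nucleus, ain-1(tm3681), affected in a GW182 relative that acts in silencing by microRNAs, and daf-16(mu86), affected in the FOXO transcription factor below insulin signalling. The wild type (WT) was N2. All animals grew at 20 °C, were kept with FUDR, which blocks progeny, and on day 2 went to plates without bacteria (fasting) or with bacteria killed by ultraviolet light (fed). The series has 8 groups with 1 array each, so no group has a replicate, and precision is limited by how few arrays there are.

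The unfolded protein response adjusts the folding capacity of the ER to its load of secreted and membrane proteins. Its sensors are IRE-1, a kinase and nuclease that splices xbp-1 mRNA so that an active transcription factor is made, PEK-1, the PERK kinase that slows translation, and ATF-6, a membrane-bound transcription factor freed by proteolysis. In adult worms the intestine, which makes yolk, and the hypodermis, which secretes cuticle collagen, carry large secretory loads. Splicing, phosphorylation and cleavage are not read by an array of mRNA levels, and the position of the probes along xbp-1 is not known here.

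Array quality and labels were read first. The median intensity spanned 37.8 in fasting daf-16 to 35.3 in fed daf-16. A drsh-1 probe set read 17.1 in fasting and 14 in fed drsh-1 animals, against 185.2 in fasting and 182.8 in fed WT, and a daf-16 probe set read 9.0 in fasting and 9.3 in fed daf-16 animals, against 69.5 and 76.4 in fasting and fed WT. Other probe sets of these genes did not all follow: the second of drsh-1 read 356.9 in fasting and 397.0 in fed drsh-1, against 68.8 in fasting and 68.7 in fed WT. The other 3 of daf-16 read 105.8 to 310.7 on the daf-16 arrays, against 266.3 to 414.5 on the WT arrays. The ain-1 probe sets were not clearly lower in ain-1 animals and check nothing about that label. The fasting daf-16 array stood apart in added control RNA: its dap control read 149.1, against 58.9 to 101.5 on the other arrays. The ratio of 3' to 5' probe sets for Gapdh was 1.20 in fasting and 1.19 in fed daf-16, against 0.86 to 1.05 elsewhere. For actin it was 2.11 in fasting and 2.06 in fed daf-16, and 1.54 to 2.03 elsewhere, with fasting drsh-1 the lowest. The part of these differences in the values below was not tested.

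In WT, ain-1 and daf-16, crt-1, pdi-2, pek-1 and atf-6 were higher fasting than fed, while in drsh-1 the fed animals read nearer the fasting level of the other strains. The gene dnj-7 had a like order but missed the threshold without drsh-1 too. The chaperone genes hsp-3 and hsp-4 and the transcription factor gene xbp-1 were higher in drsh-1 than in WT with and without food. Against the other 3 strains as 1 group, hsp-4 did not pass. In the main fits over all 8 arrays, hsp-3, hsp-4 and the first xbp-1 probe set, all for drsh-1 against WT, were the only calls. The genes ire-1 and pdi-1 were called neither there nor for fasting without drsh-1. These groupings were made after the values were seen and carry no test of their own.

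**Figure D1:**
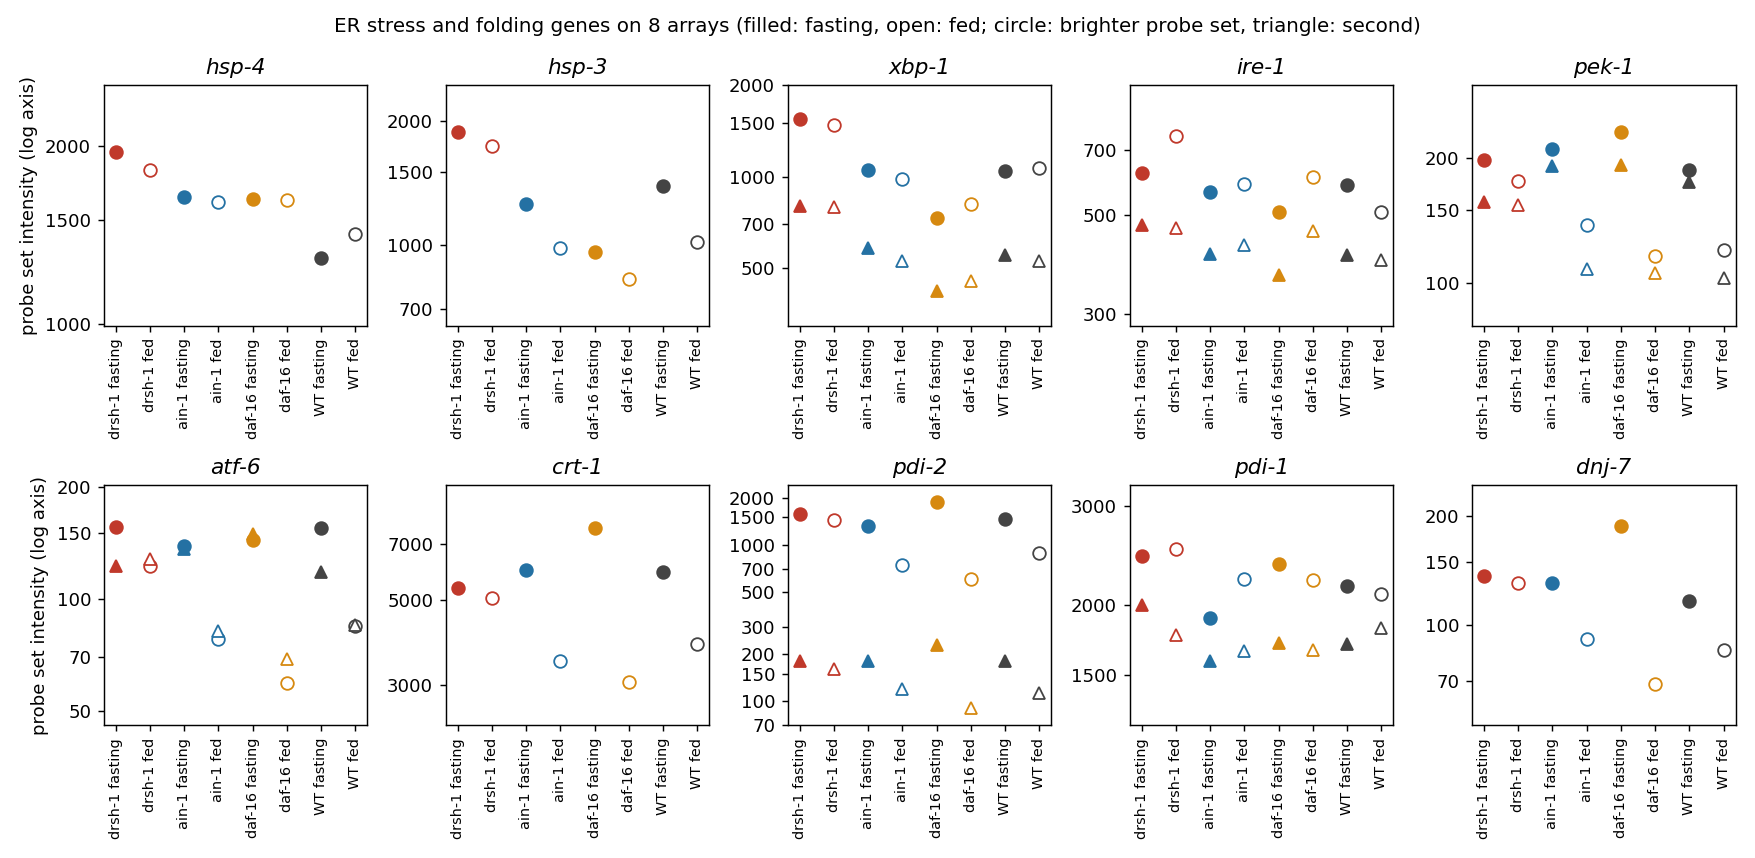
Intensity of each gene on the 8 arrays (vertical log axis, linear intensity as deposited), with filled symbols for fasting and open symbols for fed animals, circles for the first and triangles for the second probe set. In crt-1 the fasting arrays lie between 5357 and 7676 and the fed arrays between 3061 and 5047, while hsp-4 and xbp-1 are highest on the 2 drsh-1 arrays.

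Among the folding genes, crt-1 encodes calreticulin, a calcium-binding lectin chaperone. Its probe set read 5357 in fasting drsh-1, 5981 in fasting ain-1, 7676 in fasting daf-16 and 5901 in fasting WT, against 5047 in fed drsh-1, 3459.9 in fed ain-1, 3061 in fed daf-16 and 3835 in fed WT. Every fasting array thus lay above every fed array, with fed drsh-1 the closest to the fasting ones. Over the 4 strains crt-1 was 1.63-fold higher fasting (log2 change 0.70 ± 0.18, SE), which missed the threshold of 0.05 in limma (adjusted p = 0.0754). Without the drsh-1 arrays, an alternative fit with 2 residual degrees of freedom, the change was 1.88-fold (0.91 ± 0.14) and passed (adjusted p = 0.00782).

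The gene pdi-2 encodes a protein disulfide isomerase that is also a subunit of the enzyme that hydroxylates prolines of collagen. Its first probe set read 1583 in fasting drsh-1, 1329 in fasting ain-1, 1869.5 in fasting daf-16 and 1474.5 in fasting WT, against 1450.3 in fed drsh-1, 746.9 in fed ain-1, 605.8 in fed daf-16 and 882.5 in fed WT. Here fed drsh-1 overlapped the fasting arrays, lying above fasting ain-1, and the other fed arrays were all below. The change was 0.82 ± 0.22 over the 4 strains (adjusted p = 0.0784) and 1.05 ± 0.18, or 2.07-fold, without drsh-1 (adjusted p = 0.0123). The second probe set was dimmer, at 179.7, 179.9, 226.9 and 179.9 in fasting drsh-1, ain-1, daf-16 and WT, against 160.5, 119.5, 90.7 and 113.0 in the fed animals of those strains, with no overlap between foods. Its changes were 0.62 ± 0.18 over the 4 strains (adjusted p = 0.0872) and 0.77 ± 0.17 without drsh-1 (adjusted p = 0.0238).

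The DnaJ-domain gene dnj-7 is the homologue of mammalian DNAJC3, a co-chaperone of the ER that restrains the PERK kinase in mammals. It read 136.4 in fasting drsh-1, 131.1 in fasting ain-1, 188.1 in fasting daf-16 and 116.4 in fasting WT, against 130.8 in fed drsh-1, 91.7 in fed ain-1, 68.7 in fed daf-16 and 85.4 in fed WT. Fasting daf-16 was far above the rest, and fed drsh-1 lay above fasting WT. The change without drsh-1 was 0.70 ± 0.20 and just missed the threshold (adjusted p = 0.0528), and over the 4 strains it was 0.54 ± 0.20 (adjusted p = 0.136).

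The remaining folding gene, pdi-1, encodes another disulfide isomerase. Its first probe set read 2446 in fasting drsh-1, 1893 in fasting ain-1, 2363 in fasting daf-16 and 2158 in fasting WT, against 2514 in fed drsh-1, 2228 in fed ain-1, 2211 in fed daf-16 and 2094 in fed WT, so the foods overlapped. The fasting change was -0.03 ± 0.09 (adjusted p = 0.827) for it and 0.02 ± 0.09 (adjusted p = 0.921) for the second probe set, which spanned 1590.3 to 2001 over the 8 arrays. The isomerase genes pdi-1 and pdi-2 thus showed different fasting values, although the difference between them was not tested.

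Of the sensors, pek-1 and atf-6 had the higher fasting values. The first pek-1 probe set read 197.4 in fasting drsh-1, 210.3 in fasting ain-1, 230.6 in fasting daf-16 and 186.6 in fasting WT, against 176.3 in fed drsh-1, 138.3 in fed ain-1, 116.0 in fed daf-16 and 120.4 in fed WT. The first atf-6 probe set read 155.8 in fasting drsh-1, 138.4 in fasting ain-1, 143.6 in fasting daf-16 and 154.8 in fasting WT, against 122.5 in fed drsh-1, 77.9 in fed ain-1, 59.5 in fed daf-16 and 84.4 in fed WT. In these 2 probe sets every fasting array was above every fed array, and fed drsh-1 was the highest of the fed arrays. The second atf-6 probe set read 122.3 in fasting drsh-1, 136.4 in fasting ain-1, 149.2 in fasting daf-16 and 117.8 in fasting WT, against 127.6 in fed drsh-1, 82.2 in fed ain-1, 68.8 in fed daf-16 and 85.0 in fed WT. There fed drsh-1 lay above fasting drsh-1 and fasting WT, so the foods overlapped.

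Over the 4 strains the change was 0.54 ± 0.15 for pek-1 (adjusted p = 0.0801) and 0.72 ± 0.15 for atf-6 (adjusted p = 0.0561). Without drsh-1 pek-1 was higher by 0.67 ± 0.14 (adjusted p = 0.019) and atf-6 by 0.85 ± 0.13 (adjusted p = 0.00892). The second probe sets of both genes also passed there, pek-1 with 0.74 ± 0.12 (adjusted p = 0.0103) and atf-6 with 0.67 ± 0.15 (adjusted p = 0.0258), so the 2 readings of each gene moved the same way.

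The sensor gene ire-1 read 620.0 in fasting drsh-1, 562.4 in fasting ain-1, 508.2 in fasting daf-16 and 583.9 in fasting WT, against 751.6 in fed drsh-1, 585.8 in fed ain-1, 607.8 in fed daf-16 and 506.1 in fed WT. It was lower fasting in drsh-1, ain-1 and daf-16 and higher in WT, with overlap of the foods. Neither probe set passed the test (-0.09 ± 0.12, adjusted p = 0.617, and -0.08 ± 0.11, adjusted p = 0.65). Its second probe set spanned 366.8 in fasting daf-16 to 475.4 in fasting drsh-1.

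The BiP genes hsp-4 and hsp-3 encode the Hsp70 chaperone of the ER lumen, and hsp-4 is the usual reporter gene of ER stress in the worm. The hsp-4 probe set read 1951 in fasting drsh-1, 1637 in fasting ain-1, 1629 in fasting daf-16 and 1291 in fasting WT, against 1823 in fed drsh-1, 1608 in fed ain-1, 1618 in fed daf-16 and 1419 in fed WT. Within each strain the foods lay close together, and the strains ranked the same fasting as fed except for the near-equal ain-1 and daf-16. The fasting change was -0.00 ± 0.08 (adjusted p = 0.996).

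The hsp-3 probe set read 1883 in fasting drsh-1, 1256 in fasting ain-1, 958.5 in fasting daf-16 and 1387 in fasting WT, against 1739 in fed drsh-1, 979.7 in fed ain-1, 826.6 in fed daf-16 and 1018.5 in fed WT. It was higher fasting in all 4 strains, but the strains differed by more than the foods did, so the foods overlapped. The fasting change was 0.28 ± 0.09 (adjusted p = 0.113), and 0.33 ± 0.10 without drsh-1 (adjusted p = 0.0588). The probe sets of hsp-3 and hsp-4 carry the manufacturer's mark for sets that can match more than 1 transcript, and cross-hybridisation between these similar genes was not tested. The same mark is on crt-1, dnj-7, both pdi-1 probe sets, the first of pek-1 and pdi-2, and the second of ire-1 and atf-6. The second pek-1 probe set carries a separate mark for possible cross-hybridisation, which was not tested for these genes either. The log2 values of hsp-3 and hsp-4 correlated with r = 0.44 over the 8 arrays.

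The transcription factor gene xbp-1 read 1544 in fasting drsh-1, 1048 in fasting ain-1, 730.4 in fasting daf-16 and 1041 in fasting WT, against 1479 in fed drsh-1, 983.0 in fed ain-1, 810.4 in fed daf-16 and 1072 in fed WT. Both drsh-1 arrays stood above all others and both daf-16 arrays below, whatever the food. The fasting change was -0.01 ± 0.09 (adjusted p = 0.959) for this probe set and 0.03 ± 0.10 (adjusted p = 0.865) for the second, whose values correlated with the first at r = 0.99 over the 8 arrays.

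Counted together for fasting, none of the 16 probe sets passed in the fit over the 4 strains, where 523 of 15783 tested probe sets did (3.31%, and 0.431% higher). At an unadjusted p under 0.05 there were 9 of the 16, and 4742 of all. In the limma fit without the drsh-1 arrays, 7 of the 16 passed, all higher fasting: both probe sets of pek-1, atf-6 and pdi-2, and that of crt-1. In the same fit 23.9% of all tested probe sets were called, 15% higher and 8.97% lower (2361 and 1415). Leaving out daf-16 as well as drsh-1 was an alternative added after seeing the data. It rests on the WT and ain-1 arrays alone, with fewer residual degrees of freedom than the fit without drsh-1. It left 9 of the 16 called, with hsp-3 (0.40) and dnj-7 (0.42) added, against 4905 of all tested (31.1%). Of the fits that leave out 1 strain, only the fit without drsh-1 called any of the 16. Without WT, ain-1 or daf-16 the count was 0, against 0.684%, 0.729% and 0.615% of all tested. The median fasting change of the 16 over the 4 strains was 0.38, against 0.01 over all probe sets tested.

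All 4 fasting arrays lay above all 4 fed arrays for 5 of the 16 probe sets (both of pek-1, the first of atf-6, the second of pdi-2, and crt-1), against 4.52% of all tested. Without drsh-1 this held for 8 of the 16, against 23.5% of all. Since whole animals were used, fewer cells of a tissue and less RNA per cell cannot be told apart in any of these values.

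**Figure D2:**
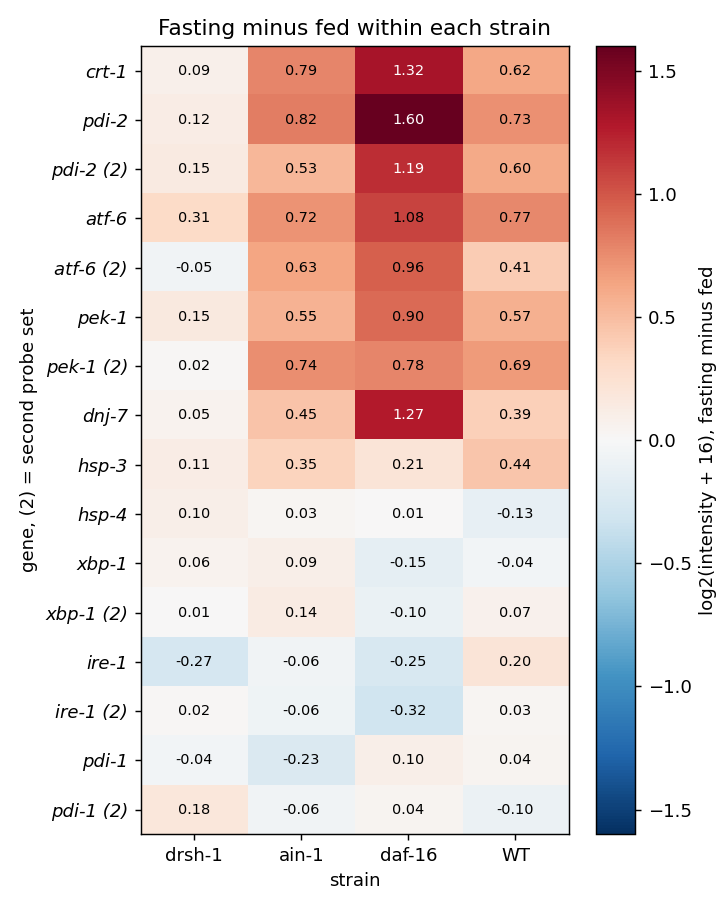
Fasting minus fed difference of log2(intensity + 16) within each strain (columns) for each probe set (rows), 1 array against 1 array, red for higher fasting. The drsh-1 column runs from -0.27 to 0.31, and the daf-16 column from -0.32 to 1.60.

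Within single strains the 8 probe sets of crt-1, pdi-2, atf-6, pek-1 and dnj-7 differed by -0.05 to 0.31 in drsh-1, by 0.45 to 0.82 in ain-1, by 0.78 to 1.60 in daf-16 and by 0.39 to 0.77 in WT on the log2 scale. The gene pdi-2 had the largest value in daf-16, where the intensity of its first probe set was 3.09-fold higher fasting. Folds were counted on intensity + 16. A 2-fold higher fasting value was reached by 5 of the 16 probe sets in daf-16, against 7.17% of all tested. These were the first of atf-6, both of pdi-2, crt-1 and dnj-7. The second atf-6 probe set fell short at 0.96 on that log2 scale, though its intensity alone was 2.17-fold higher. In drsh-1, ain-1 and WT the count was 0, against 0.0317%, 2.72% and 2.58% of all. None was 2-fold lower in drsh-1, ain-1, daf-16 or WT, where 1.04%, 3.49%, 5.01% and 3.36% of all were. The typical difference between 2 arrays around the additive model had an SD of 0.21, and within a strain there is no replicate check.

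Over the 16 probe sets the median fasting change was 0.07 in drsh-1, 0.40 in ain-1, 0.49 in daf-16 and 0.40 in WT, against medians over all tested probe sets of 0.00, 0.02, -0.01 and 0.02 in those strains. The difference in response was tested with 1 strain set against the mean of the other 3. For drsh-1 the response of crt-1 was lower by 0.82 ± 0.27 (log2, unadjusted p = 0.0242, adjusted p = 0.29 in limma) and that of pdi-2 by 0.93 ± 0.37 (adjusted p = 0.354). For daf-16 the response was higher by 0.97 ± 0.26 for dnj-7 (adjusted p = 0.293) and by 1.04 ± 0.31 for pdi-2 (adjusted p = 0.295). None of the 16 passed for any strain, and neither did any of the 15783, with 2 residual degrees of freedom. At an unadjusted p under 0.05 there were 3 of the 16 for drsh-1, 4 for daf-16 and 0 for ain-1 and for WT, against 13.6%, 14.5%, 1.09% and 1.01% of all tested. A smaller response in drsh-1 or a larger one in daf-16 was thus not established for any of these genes.

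The fed drsh-1 array was set between the others' means as a description. With the mean fed log2 value of ain-1, daf-16 and WT as 0 and their mean fasting value as 1, fed drsh-1 stood at 0.61 for crt-1, 0.92 for the first pdi-2 probe set, 0.74 for the first atf-6 probe set, 0.67 for the first pek-1 probe set and 0.84 for dnj-7. The second probe sets stood at 0.67 for pdi-2, 0.91 for atf-6 and 0.66 for pek-1. Each of these genes was therefore more than midway to the fasting level in fed drsh-1 animals. The same position was not read over all tested probe sets, so it is not shown to be particular to these genes. Over the whole array, 2-fold higher fasting values were rare in drsh-1 (0.0317% of all tested), against 2.72% in ain-1, 7.17% in daf-16 and 2.58% in WT.

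Compared with WT over both foods, 3 of the 16 probe sets were called in drsh-1, all higher, against 11.7% of all tested called and 7.98% called higher. They were hsp-3, 1.52-fold higher (0.60 ± 0.13, adjusted p = 0.0352), hsp-4, 1.39-fold higher (0.47 ± 0.12, adjusted p = 0.0488), and the first xbp-1 probe set, 1.42-fold higher (0.51 ± 0.13, adjusted p = 0.0495). The second xbp-1 probe set was just outside (0.55 ± 0.14, adjusted p = 0.0504). All of them lay close to the threshold, and their count was 0 or 1 without any single drsh-1 or WT array, 0 without the ain-1 arrays and 1 with each array centred on its median.

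The BiP genes and xbp-1 read above WT in drsh-1 under both foods. The drsh-1 minus WT difference of hsp-3 was 0.44 fasting and 0.76 fed, that of hsp-4 0.59 fasting and 0.36 fed, and that of xbp-1 0.56 fasting and 0.46 fed. The fasting genes differed from WT mostly when fed: crt-1 by -0.14 fasting and 0.39 fed, pdi-2 by 0.10 fasting and 0.71 fed, pek-1 by 0.08 fasting and 0.50 fed, atf-6 by 0.01 fasting and 0.46 fed, and dnj-7 by 0.20 fasting and 0.53 fed. The sensor gene ire-1 was at 0.08 fasting and 0.56 fed, and its second probe set at 0.22 fasting and 0.23 fed. None of these single-food differences has a replicate.

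**Figure D3:**
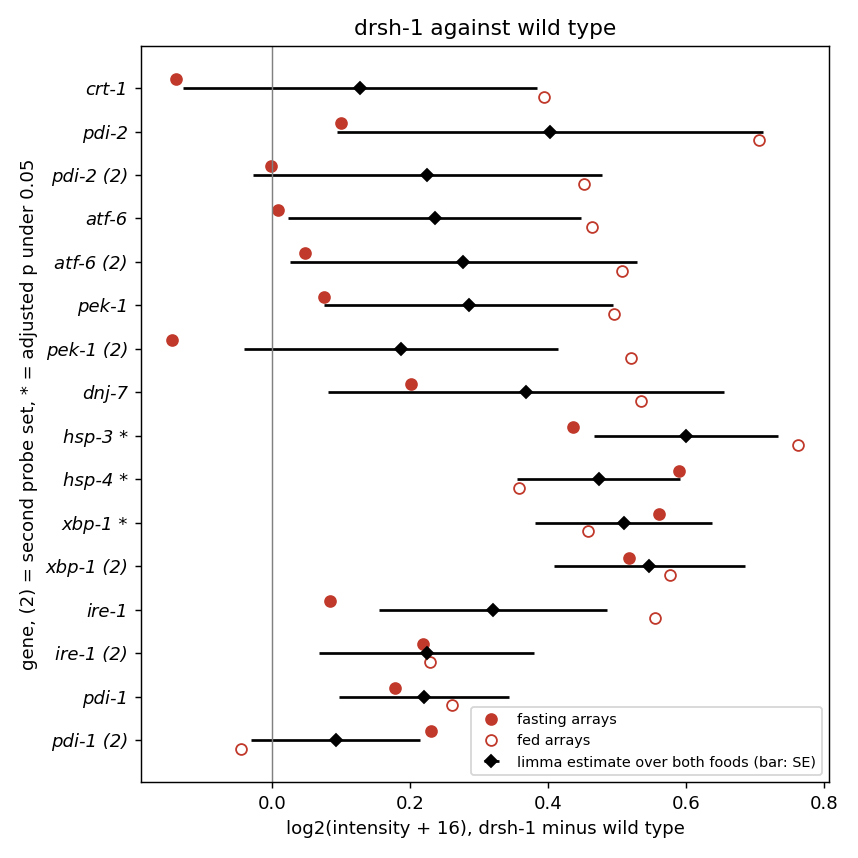
Difference of log2(intensity + 16) between drsh-1 and WT for each probe set, with filled circles for fasting, open circles for fed arrays, and diamonds with bars for the limma estimate over both foods with its SE. The upper 8 probe sets, of crt-1, pdi-2, atf-6, pek-1 and dnj-7, have fasting values between -0.14 and 0.20 and fed values between 0.39 and 0.71, while hsp-3, hsp-4 and xbp-1 lie above 0.35 in both.

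Both drsh-1 arrays were above the other 6 for 7 of the 16 probe sets (hsp-3, hsp-4, both of xbp-1 and ire-1, and the first of pdi-1), against 18.1% of all tested. Among fed arrays drsh-1 was the highest for 15 of the 16, all but the second pdi-1 probe set, against 36.5% of all. Among fasting arrays it was the highest for 9 of the 16, against 34.8%.

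Setting drsh-1 against the other 3 strains as 1 group was added after seeing the data. Over both foods hsp-3 was 1.70-fold higher (0.77 ± 0.15, adjusted p = 0.0112) and xbp-1 1.60-fold higher (0.68 ± 0.17, adjusted p = 0.0246), its second probe set by 0.63 ± 0.15 (adjusted p = 0.0192), while hsp-4 did not pass (0.30 ± 0.12, adjusted p = 0.118). All of its 3 calls were higher, where 11.2% of all tested were. With fed or fasting arrays alone, the drsh-1 arm is 1 array against 3 of different strains, and it is assumed to vary as they do. On fed arrays hsp-3 (0.88 ± 0.18, adjusted p = 0.0163), the first pdi-2 probe set (0.96 ± 0.22, adjusted p = 0.0284) and crt-1 (0.55 ± 0.14, adjusted p = 0.0429) passed with higher values, where 9.17% of all did. On fasting arrays alone none of the 16 passed in limma, 2 did at an unadjusted p under 0.05, as did 20.6% of all, and 1.66% of all tested were called, with hsp-3 at 0.66 ± 0.25 (adjusted p = 0.226) and xbp-1 at 0.73 ± 0.26 (adjusted p = 0.217).

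In ain-1 none of the 16 probe sets passed against WT in limma, where 0.0507% of all tested were called. At an unadjusted p under 0.05 there was none of the 16 either, against 5.85% of all. Their differences ran from -0.19 for pdi-2 to 0.26 ± 0.12 for hsp-4 (adjusted p = 0.879). In daf-16 none passed either, as none did among all tested (0%), although 2 of the 16 had an unadjusted p under 0.05, as did 1385 of all. These were hsp-3 (-0.41 ± 0.13, adjusted p = 0.483) and the first xbp-1 probe set (-0.45 ± 0.13, adjusted p = 0.422), both with their lowest levels of the 8 arrays on a daf-16 array. The 3 mutants were compared with the same WT arrays, so their differences are not independent of each other.

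Across the 8 arrays the 8 probe sets of crt-1, pdi-2, atf-6, pek-1 and dnj-7 correlated with each other at r = 0.86 to 0.98 in log2 values. The hsp-3 probe set was closest to xbp-1 (r = 0.90 and 0.93), and crt-1 and xbp-1 had r = 0.04. The arrays share strains and foods, so these values describe the patterns above and are given without a test.

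**Figure D4:**
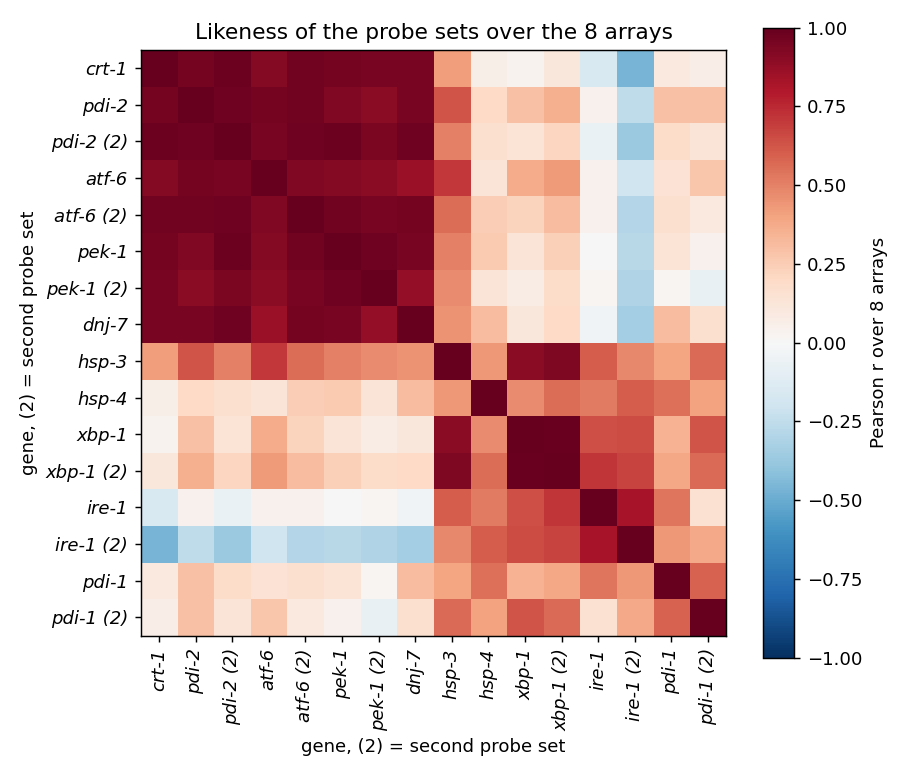
Pearson r of log2(intensity + 16) over the 8 arrays between all pairs of the 16 probe sets, red for positive and blue for negative values. The block at the upper left holds the probe sets of crt-1, pdi-2, atf-6, pek-1 and dnj-7, and hsp-3 and xbp-1 form a smaller block.

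The genes most like hsp-4 over the 8 arrays were T28A11.16 (r = 0.99), the GalNAc transferase gene gly-4 (r = 0.98), Y54E2A.4 (r = 0.98), the asparaginyl-tRNA synthetase gene nars-1 (r = 0.98) and the ribosomal protein gene rps-20 (r = 0.97). The gene nars-1, for example, read 1616 in fasting drsh-1, 1280.0 in fasting ain-1, 1402 in fasting daf-16 and 1088 in fasting WT, against 1545 in fed drsh-1, 1317 in fed ain-1, 1346 in fed daf-16 and 1183 in fed WT. Like hsp-4, it was highest in drsh-1 and lowest in WT, with the foods close together.

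Most like hsp-3 were ZC247.1 and F45D3.2 (both r = 0.99), Y54G2A.10 (r = 0.99), the fatty acid amide hydrolase gene faah-2 (r = 0.98) and F13D11.4 (r = 0.98). The gene faah-2 read 744.7 in fasting drsh-1, 260.1 in fasting ain-1, 184.7 in fasting daf-16 and 357.6 in fasting WT, against 786.9 in fed drsh-1, 172.7 in fed ain-1, 130.2 in fed daf-16 and 208.9 in fed WT. It shared with hsp-3 the top level in drsh-1 and the bottom level in fed daf-16.

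By RefSeq annotation of assembly WBcel235, hsp-3, pek-1, atf-6, pdi-2 and dnj-7 lie on chromosome X, hsp-4 and ire-1 on chromosome II, xbp-1 and pdi-1 on chromosome III and crt-1 on chromosome V. So 5 of the 10 genes are X-linked, against 14.5% of all genes tested. The median fasting change of X-linked genes was 0.11 over the 4 strains, against -0.01 for genes on other chromosomes. Within strains it was 0.04 in drsh-1, 0.10 in ain-1, 0.20 in daf-16 and 0.07 in WT, against 0.00, -0.00, -0.04 and 0.01 for the other chromosomes. The part of this shift in the values of pek-1, atf-6, pdi-2 and dnj-7 was not tested.

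Other genes of the secretory pathway were read from lists, whose counts without drsh-1 stand against 15% of all tested called higher and 8.97% called lower there. In the fit over the 4 strains none of the listed ER genes passed for fasting. Without drsh-1, 3 of 9 measured ER chaperone genes were called, all higher: uggt-1, which reglucosylates misfolded glycoproteins (0.93 ± 0.16, adjusted p = 0.0124), the Hsp70-family gene T14G8.3 (0.57 ± 0.12, adjusted p = 0.0196) and dnj-27 (0.55 ± 0.14, adjusted p = 0.0386). Among 10 disulfide and collagen-modifying enzymes 3 were higher, namely the isomerase gene pdi-6 (1.02 ± 0.16, adjusted p = 0.00818), the prolyl hydroxylase gene dpy-18 (0.74 ± 0.19, adjusted p = 0.0352) and C14B9.2 (0.54 ± 0.11, adjusted p = 0.0186).

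The fasting values of pdi-6 were 2651 in drsh-1, 2975 in ain-1, 3602 in daf-16 and 2863 in WT, against fed values of 2593 in drsh-1, 1636 in ain-1, 1268.5 in daf-16 and 1729 in WT. Fed drsh-1 again lay near the fasting level, and every fasting array was above every fed one. Of the 18 translocon, signal peptidase and glycosylation genes, the translocon gene trap-2 (0.79 ± 0.14, adjusted p = 0.0124) and the signal peptidase gene spcs-2 (0.43 ± 0.09, adjusted p = 0.0231) were called without drsh-1, both higher.

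The other lists moved less in one direction. None of 15 genes of ER-associated degradation passed without drsh-1, where png-1 stood at -0.34 ± 0.12 (adjusted p = 0.0926) and marc-6 at 0.29 ± 0.12 (adjusted p = 0.132), and none of 9 abu genes did. The COPII coat gene sec-23 was the single call among 9 export genes, lower by 0.52 on the log2 scale (adjusted p = 0.0224). Of 9 signalling partners only the choline kinase gene ckb-2 passed (0.75 ± 0.17, adjusted p = 0.0274). Of 7 calcium genes the ER pump gene sca-1 was higher (0.45 ± 0.10, adjusted p = 0.0231) and the calsequestrin gene csq-1, which muscle expresses, lower (-1.03 ± 0.27, adjusted p = 0.0402).

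**Figure D5:**
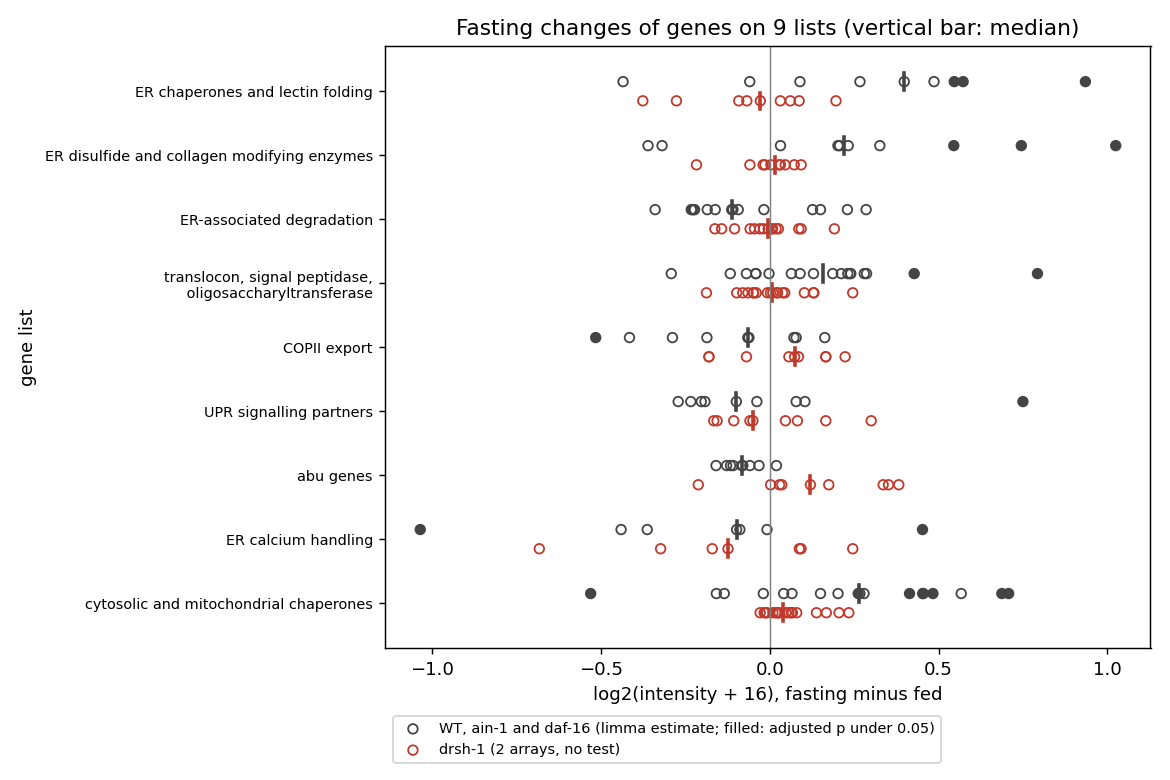
Fasting minus fed change of log2(intensity + 16) for the genes of 9 lists (rows), with black circles for the limma estimate over WT, ain-1 and daf-16 (filled where the adjusted p is under 0.05) and red circles for drsh-1 alone, which has no test. Vertical bars mark medians, which are 0.40 for ER chaperones in the 3 strains and -0.03 in drsh-1.

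The ER chaperone list had median fasting changes of -0.03 in drsh-1, 0.37 in ain-1, 0.35 in daf-16 and 0.23 in WT. Chaperones outside the ER gave a background for these values. Their medians were 0.04 in drsh-1, 0.19 in ain-1, 0.37 in daf-16 and 0.10 in WT, so a small drsh-1 median was not particular to the ER list. Of 18 cytosolic and mitochondrial chaperone genes, 6 were called higher and 1 lower for fasting without drsh-1, with the DnaJ gene dnj-12 at 0.71 ± 0.12 (adjusted p = 0.0105), the chaperonin subunit genes cct-3 at 0.69 ± 0.15 (adjusted p = 0.0223) and cct-4 at 0.48 ± 0.08 (adjusted p = 0.011), and the mitochondrial hsp-60 at -0.53 ± 0.11 (adjusted p = 0.0202). Calls of higher fasting values were thus also made outside the ER.

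In drsh-1 against WT, the list counts stand against 7.98% of all tested called higher and 3.74% called lower. There 1 of the 9 ER chaperone genes was called, the ER DnaJ gene dnj-20 (0.73 ± 0.15, adjusted p = 0.0272). It read 1079 in fasting and 1131 in fed drsh-1, against 697.2 in fasting and 621.0 in fed WT. Among the 9 signalling partners 1 was called, gcn-1, a partner of the kinase GCN-2 in translational control (1.41 ± 0.16 higher, adjusted p = 0.00458). The gene gcn-1 read 467.4 in fasting and 487.4 in fed drsh-1, against 152.5 in fasting and 188.2 in fed WT. The other ER lists had no call in drsh-1. Outside the ER, 4 of the 18 chaperone genes were higher: hsp-6 (0.84 ± 0.15, adjusted p = 0.0193), hsp-1 (0.74 ± 0.10, adjusted p = 0.00788), dnj-13 (0.66 ± 0.13, adjusted p = 0.0225) and cct-2 (0.66 ± 0.15, adjusted p = 0.0404). No gene of these lists, ER or cytosolic, was called in ain-1 or in daf-16.

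Cuticle collagens are a main secreted product of the hypodermis and pass through the ER, where they are folded and hydroxylated. Of 109 measured col- genes, 31 were lower and none higher for fasting over the 4 strains, against 2.88% of all tested called lower. Likewise 31 were lower in drsh-1 than in WT, against 3.74% of all. Intensity was summed over all 128 col- genes on the array, dim ones too. The fasting sums were 11697 in drsh-1, 14791 in ain-1, 23566 in daf-16 and 31596 in WT. The fed sums were 27731 in drsh-1, 68756 in ain-1, 71755 in daf-16 and 86258 in WT. Fed drsh-1 was thus the lowest of the fed arrays for its collagens and the highest for crt-1 and pdi-2.

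Several sums of tissue markers moved with the same groups. The summed intensity of 6 hypodermal markers was 1157 to 3201 on the fasting and 2574 to 6518 on the fed arrays, and that of 8 muscle markers 1258 to 2459 against 2737 to 6104. The 9 measured intestinal markers summed to 3012 to 5947 fasting and 4407 to 8570 fed. In fed WT asp-1 alone gave 5700 of the 7721. In WT elt-7 and pept-1 read higher fasting than fed, and the other intestinal markers lower. For 12 germline and oocyte markers the sum was 25768 in fasting drsh-1, 24153 in fasting ain-1, 23440 in fasting daf-16 and 29647 in fasting WT, against 27105 in fed drsh-1, 32157 in fed ain-1, 36346 in fed daf-16 and 33759 in fed WT. The foods were closest in drsh-1 and farthest apart in daf-16, as for crt-1 and pdi-2, and 7 of the 12 were called lower for fasting without drsh-1. The 23 sperm markers summed to 1670.2 to 3389 fasting and 2069 to 9611 fed, with fed ain-1 apart from the other fed arrays, the next of which read 2424. The 8 neuronal markers summed to 2711 to 3123 fasting and 2470.4 to 3156 fed, and the 5 pharyngeal markers to 181.9 to 464.5 fasting and 213.6 to 457.1 fed. Of all these sums only that of the muscle markers had no overlap of the foods. Within each strain the hypodermal, muscle, intestinal and germline sums were lower fasting than fed. The part of tissue make-up in the values of the folding genes was not tested.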

How the data were processed

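RNA of whole animals was labelled by 3' in vitro transcription and measured on 8 Affymetrix arrays, per the labels' protocols. The authors deposited linear probe set intensity in 1 table of 22625 probe sets. Summarisation, normalization and background correction are not given in the sources used here. Control probe sets (77) were left out. Genes were named from the platform annotation, updated by Entrez number to RefSeq names of WBcel235 (20701 symbols matched, 65 kept as given, of 20766 probe sets with 1 symbol). No sequence of the probes or genes was used here.

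Values were taken as log2(intensity + 16), which understates changes of dim genes, and the lowest 30% by mean (below an intensity of about 15.7) were left out. An additive model of strain plus food over the 8 arrays was fitted in R 4.3.3 by limma 3.58.1, using a mean-variance trend (3 residual and 3.72 prior degrees of freedom). The same model without the drsh-1 arrays, 1 of the alternatives named below, leaves 2 residual degrees of freedom. Fasting was tested with strain as a block, each mutant with food as a block, and each strain's response against the other 3. Calls needed a Benjamini-Hochberg adjusted p under 0.05 over all 15783 probe sets. With no replicates, the p-values reflect nothing but how the arrays scatter around the model, which may be technical and holds differences in response. Single strains were described at 2-fold without a test. Scripts were tested on simulated data.

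The members, the gene lists and the comparisons were chosen with earlier results of these data known. Named genes were all members, up to 4 called genes of a list and comparison by size (the 2 with the largest change where fewer than 2 were called), the 5 genes most correlated with hsp-4 and with hsp-3, and the targeted genes. Lists count genes with a probe set of 1 symbol that passed the filter, by the probe set with the highest mean. Sums of intensity also hold listed genes below the filter. Alternatives were no filter or a 50% filter, quantile normalization, median centring, a pseudocount of 1 or 64, no trend, limma's arrayWeights, no block, and leaving out arrays or strains.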

Additional observations from a re-analysis of the deposited data

Results flagged for a closer look

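Of 32 groups of 4 arrays (each of the 16 probe sets, fasting and fed), 2 held an array far from the other 3, where chance gives about 1 in 20. In both, the gap to the nearest array, as a share of the whole range, exceeded Dixon's critical value for 4 samples. The second pek-1 probe set read 154.1 in fed drsh-1, against 102.6 to 108.0 on the other fed arrays, a share of 0.895. The first pek-1 probe set was also highest among the fed arrays in drsh-1, at 176.3. The second pdi-2 probe set read 226.9 in fasting daf-16, against 179.7 to 179.9 on the other fasting arrays, a share of 0.997. The first pdi-2 probe set was also highest there, at 1869.5, and fasting daf-16 is the array whose added control RNA read highest. The cause of either value was not tested.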

How the results depend on the processing

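The calls of these genes rest on few arrays. For fasting, none of the 16 probe sets was called over the 4 strains. With the 50% filter 1 was called (5.36% of all tested were), and 1 with median centring (4.45% of all). With arrayWeights, which weight the strains near the mean change, 9 were called (40.2% of all). Leaving out 1 strain gave 0 to 7 (7 without drsh-1, 23.9% of all), and leaving out drsh-1 and daf-16 gave 9 (31.1% of all). Calls among all probe sets, 523 in the main model, were 318 with no trend, 6342 with arrayWeights (3680 higher and 2662 lower), 129 with no strain block, 97 to 3776 without 1 strain and 4905 without drsh-1 and daf-16. For drsh-1 against WT the 3 calls became 1 with no filter (8.09% of all tested), 1 with median centring (11.3%) and 1 with arrayWeights (10.8%). They became 0 with no food block (3.5%) and 0 without the ain-1 arrays (5.96%). There were 2 with a pseudocount of 1 (12.2%). There were 4 with the 50% filter (13.7%), quantile normalization (11.9%), a pseudocount of 64 (11.3%), no trend (11.9%) and without the daf-16 arrays (15.9%). Against the other 3 strains on fasting arrays they became 0. Calls among all probe sets for drsh-1, 1850 in the main model, were 553 with no food block, 145 to 1934 without a single array, 940 without ain-1, and 2782 over both foods and 262 on fasting arrays against the other 3 strains. None of the 16 was called for ain-1 or daf-16 under any alternative run. All calls for ain-1, 8 in the main model, were 5 with no trend, 497 with arrayWeights, 1 with no food block, 0 to 0 without a single array, 4 without drsh-1 and 5 without daf-16. All calls for daf-16, 0 in the main model, were 1 with no filter, 2 with a pseudocount of 1, 0 to 2 without a single array and 1 without drsh-1. The response of daf-16 had 1 call among all with a pseudocount of 64. In 57 of 992 results of single probe sets the log2 change turned its sign, always in changes that were called in neither fit. For fasting, pdi-1 was 0.0031 with quantile normalization; its second probe set was -0.00099 with median centring, -0.044 with arrayWeights and -0.077 without drsh-1 and daf-16; xbp-1 was 0.037 with arrayWeights and 0.025 without drsh-1 and daf-16, where ire-1 was 0.072. Without 1 strain, hsp-4 ran from -0.033 to 0.044, xbp-1 from -0.042 to 0.037 and from -0.0061 to 0.074 (first and second probe set), and pdi-1 from -0.076 to 0.033 and from -0.038 to 0.053. For drsh-1 against the other 3 strains on fasting arrays, pek-1 was -0.073 and -0.23, the second atf-6 probe set -0.12, the second pdi-2 probe set -0.10, crt-1 -0.27 and dnj-7 -0.056. Without a single array the drsh-1 difference ran from -0.17 to 0.54 for the second pek-1 probe set, -0.036 to 0.51 and -0.083 to 0.64 for atf-6, -0.059 to 0.87 and -0.087 to 0.54 for pdi-2, -0.28 to 0.54 for crt-1 and -0.015 to 0.20 for the second pdi-1 probe set. The ain-1 difference ran from -0.20 to 0.0087 for hsp-3, -0.12 to 0.0092 and -0.032 to 0.11 for xbp-1, -0.12 to 0.27 and -0.021 to 0.13 for ire-1, -0.18 to 0.083 for pdi-1, and for second probe sets -0.031 to 0.22 for pek-1, -0.025 to 0.17 for atf-6 and -0.022 to 0.093 for pdi-2, which was -0.0094 with quantile normalization. The daf-16 difference ran from -0.17 to 0.23 and -0.12 to 0.19 for ire-1, -0.12 to 0.36 and -0.063 to 0.23 for pek-1, -0.62 to 0.43 and -0.36 to 0.40 for pdi-2, -0.29 to 0.34 for the second atf-6 and -0.13 to 0.016 for the second pdi-1 probe set, -0.38 to 0.44 for crt-1 and -0.30 to 0.67 for dnj-7. With quantile normalization it was -0.027 and -0.046 for ire-1, -0.0078 and -0.0014 for the second atf-6 and pdi-2 probe sets and -0.016 for crt-1. Of the single probe sets, 27 results became called for fasting and 8 for drsh-1, and 30 calls for drsh-1 were lost, over all alternatives. The strain block pairs the foods within each strain. The causes were not tested.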
